A study of Mus musculus with 34 samples.

Results

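The genes described here encode the proteins of the cytosolic ribosome, and the question was whether their mRNA level differed in the dorsal hippocampus of mice trained in spatial object recognition (SOR), a task in which mice learn where objects stand in an arena. Members were taken from the table of counts per gene as the protein-coding genes whose symbol begins with Rpl (large subunit) or Rps (small subunit), leaving out the S6 kinases (Rps6k), Rps19bp1 and symbols that carry -ps. This gave 85 members of 54532 genes in the table, 33 of the small and 52 of the large subunit, and 82 of them were tested among 22018 genes. The RNA came from dorsal hippocampi of 8 adult male C57BL/6J mice of 2 to 3 months, with 1 library per mouse. The homecage (HC) group was 4 mice that were not trained, and the SOR group was 4 mice taken 1 h after training. The labels name no transgene and no agent for either group. The whole dorsal hippocampus was used, so all of its cell types are pooled, and in such bulk samples fewer cells of a type and less RNA per cell cannot be told apart.

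The cytosolic ribosome reads mRNA on its small subunit and joins amino acids on its large subunit. Most of its proteins are present in a single copy per ribosome, and most of their genes are widely expressed at high levels. Their mRNAs in vertebrates typically begin with a C followed by a run of pyrimidines, the 5′ terminal oligopyrimidine (TOP) tract, through which the mTOR kinase controls how much of the mRNA is translated. Long-lasting memory requires protein synthesis in the hippocampus, and the counts here measure mRNA and not its translation.

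No member passed the test between SOR and HC, and most were measured with narrow intervals. By edgeR's quasi-likelihood test, 0 of 82 members were called at an adjusted p under 0.05, against 0.309% of all genes tested. That is 0 higher in SOR, against 0.273% of all genes, and 0 lower, against 0.0363%. With a fold change above 1.4 as well there were 0, against 0.173%. At an unadjusted p under 0.05 there were 7 members, against 10.1% of all genes. DESeq2 and limma-voom also called 0 members. The lowest adjusted p of any member was 0.341. The 95% interval of the fold change lay within 1.4-fold in either direction for 81 of 82 members, and within 1.2-fold for 74, whereas 58.9% and 33.0% of all genes tested had intervals that narrow. In the same test, 9 of 10 immediate early genes, the fast-responding genes of neuronal activity, were called higher in SOR. The remaining 1 had a log2 fold change of -0.49 and was not called. The median of the 10 was 1.15, so these calls do not show that small changes would be found.

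The libraries held 51406011 to 81525977 counts each. The genes of the abundant 7SL and 7SK RNAs took 9.95% to 14.8% of a library and the mitochondrially encoded genes 4.92% to 5.69%. Defining markers of neurons, oligodendrocytes, astrocytes, microglia and endothelial cells were detected in the samples, with none at 0. Levels below are in CPM, the counts relative to the library total after upper-quartile scaling, unless given as a share of the library.

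Levels per length differed widely between members. CPM was divided by the length in kb of the annotated principal transcript, because a longer transcript yields more reads at the same number of molecules, and the median over all 85 members was 147 CPM per kb. Among the 82 tested, 59 exceeded 100 CPM per kb. The highest were Rplp1 at 534, Rpl21 at 356 and Rps15 at 334 CPM per kb. Rplp1 encodes one of the acidic proteins of the P stalk, the arm of the large subunit that recruits elongation factors, and Rps15 a protein of the head of the small subunit. The lowest of the tested members were Rpl12 at 8.78, Rps27l at 10.9 and Rps20 at 17.2 CPM per kb. Part of this order depends on the annotated length: the principal transcript of Rps20 is annotated with 3706 bases, of which 357 are coding, and by coding length alone Rps20 stood at 179 CPM per kb. Rpl41, which encodes the shortest protein of the set, likewise went from 277 CPM per kb of principal transcript to 1620 CPM per kb of coding length, the highest value on that scale. By either length the small and the large subunit stood close to each other in their median, at 139 and 153 CPM per kb of principal transcript and 207 and 227 by coding length. For Rpl12, 49.8% of the 31-base stretches of its transcript also occur in the gene Gm10275. How reads were divided between these genes was not tested.

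**Figure D1:**
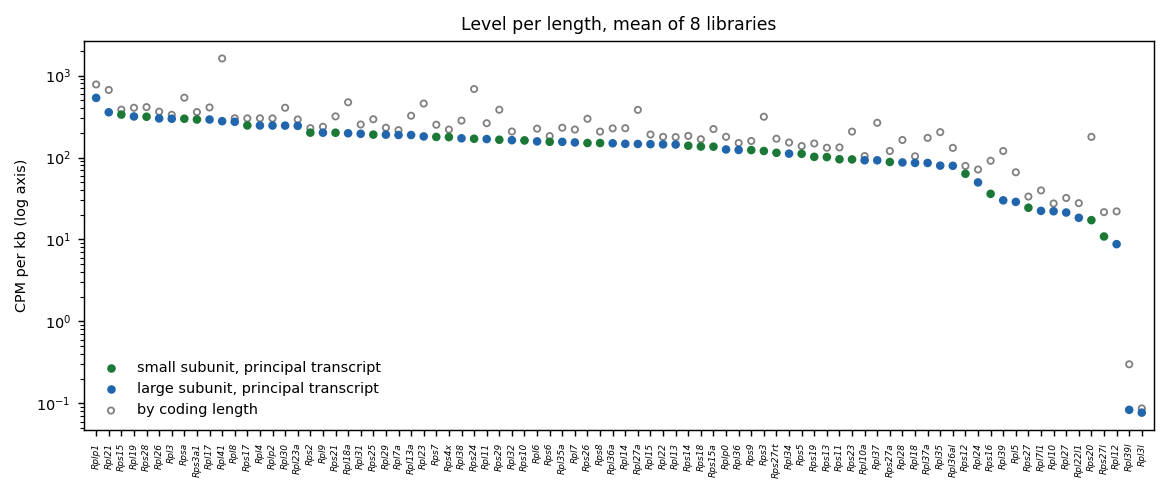
Mean level of each member over the 8 libraries in CPM per kb on a log axis, ordered by the value for the principal transcript (filled points, green for the small and blue for the large subunit) with the value for the coding length as open circles. The points fall from Rplp1 at 534 CPM per kb to Rpl12 at 8.78 CPM per kb, and 59 of the tested members exceed 100 CPM per kb, with Rpl39l and Rpl3l far below the rest and Rpl10l, at 0, not drawn.

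The 3 members that failed the filter on low counts are tissue-restricted paralogs. Rpl10l, the autosomal copy of the X-linked Rpl10 that is known from the testis, had 0 counts in all 8 libraries, which allows up to 0.0376 to 0.0589 CPM per library for counting error alone. Rpl39l, also known from the male germline, had 1.01 to 4.91 counts per library. Rpl3l, the striated-muscle paralog of Rpl3, had 2.67 to 11.8 counts. These levels were too low for a comparison between groups.

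Promoter sequences were available for 65 of the 85 members (RefSeq, GRCm38.p6, 77 windows from 250 bases before to 50 bases after an annotated start). A start base of C or T followed by at least 4 more C or T was found in 22.1% of the member windows and in 4.44% of all 32851 windows, and with C as the start base in 18.2% and 2.51%. The windows below are shown as examples of this tract, and Rps6, Rpl14 and Rps15a among them are described further on. They run from 60 bases before the annotated start to 20 bases from it, 5′ to 3′, with the tract in capitals: Rps6 at chr4:86857348-86857427 (minus strand), Rps24 at chr14:24490618-24490697 (plus strand), Rpl27a at chr7:109519135-109519214 (plus strand), Rpl15 at chr14:18270967-18271046 (minus strand), Rpl14 at chr9:120571457-120571536 (plus strand) and Rps15a at chr7:118116128-118116207 (minus strand).
Rps6: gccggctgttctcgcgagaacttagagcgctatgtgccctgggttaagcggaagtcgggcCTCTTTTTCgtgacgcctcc
Rps24: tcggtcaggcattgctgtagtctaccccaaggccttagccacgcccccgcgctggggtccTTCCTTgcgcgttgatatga
Rpl27a: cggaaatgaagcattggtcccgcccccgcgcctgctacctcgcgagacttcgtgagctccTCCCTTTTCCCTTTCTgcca
Rpl15: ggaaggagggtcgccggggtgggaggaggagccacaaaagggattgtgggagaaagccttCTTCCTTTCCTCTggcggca
Rpl14: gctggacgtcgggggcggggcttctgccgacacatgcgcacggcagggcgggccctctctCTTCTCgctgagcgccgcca
Rps15a: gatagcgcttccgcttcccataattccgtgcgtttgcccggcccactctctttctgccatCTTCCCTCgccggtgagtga
The untested Rpl10l at chr12:66284382-66284461 (minus strand) has no such tract at its annotated start and is shown for contrast.
Rpl10l: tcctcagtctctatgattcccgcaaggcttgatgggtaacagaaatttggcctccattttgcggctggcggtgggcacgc
In Rps6, which encodes the protein that S6 kinases phosphorylate, the start base is C, and in Rps24 and Rpl27a it is T. The annotated start may lie some bases from the true one, and 5 C or T in a row began within 10 bases of the start in 59.7% of member windows against 40.7% of all windows. Searched on both strands of the 300 bases, CCGGAA was present in 48.1% of member and 14.9% of all windows, AAGATGG in 15.6% and 6.34%, GGGCGG in 59.7% and 35.7%, and TATAAA in 9.09% and 13.6%. The median GC content was 58.0% in member windows and 52.7% in all windows. A match to these letters is a description of the sequence and does not show that a factor binds there.

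The members varied together between libraries, and this variation did not separate the groups. Their summed level was 9861, 10259, 10306 and 10232 CPM in HC mice 1 to 4, and 10163, 9666, 9584 and 9891 CPM in SOR mice 1 to 4. As a share of all counts of a library the mean was 1.01% ± 0.0306 (SD, n = 4) in HC and 0.985% ± 0.0440 (SD, n = 4) in SOR. SOR mouse 1 lay within the HC range of the summed level and HC mouse 1 within the SOR range, so the groups overlapped. Both subunits moved with this total, since the ratio of small to large subunit CPM stayed between 0.604 and 0.624 in the 8 libraries.

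The same libraries stood out gene by gene. Of the 82 members, 26, 67, 66 and 59 exceeded their own 8-library mean in HC mice 1 to 4, and 61, 15, 9 and 35 did so in SOR mice 1 to 4. The median deviation of the members from their own means was -0.020, 0.044, 0.051 and 0.030 on the log2 scale in HC, and 0.038, -0.056, -0.064 and -0.021 in SOR. The HC library with low ribosomal protein values, from mouse 1, held the largest share of 7SL and 7SK RNA counts (14.8%), and the SOR library with high values, from mouse 1 as well, held 9.98%, close to the lowest share. Whether the share of these RNAs had a part in the members' values was not tested. In the same libraries the median deviations of the mitochondrial ribosomal proteins, the respiratory chain subunits and the proteasome subunits lay on the same side of 0 as those of the members in 7 of 8 libraries, the exception being SOR mouse 4.

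**Figure D2:**
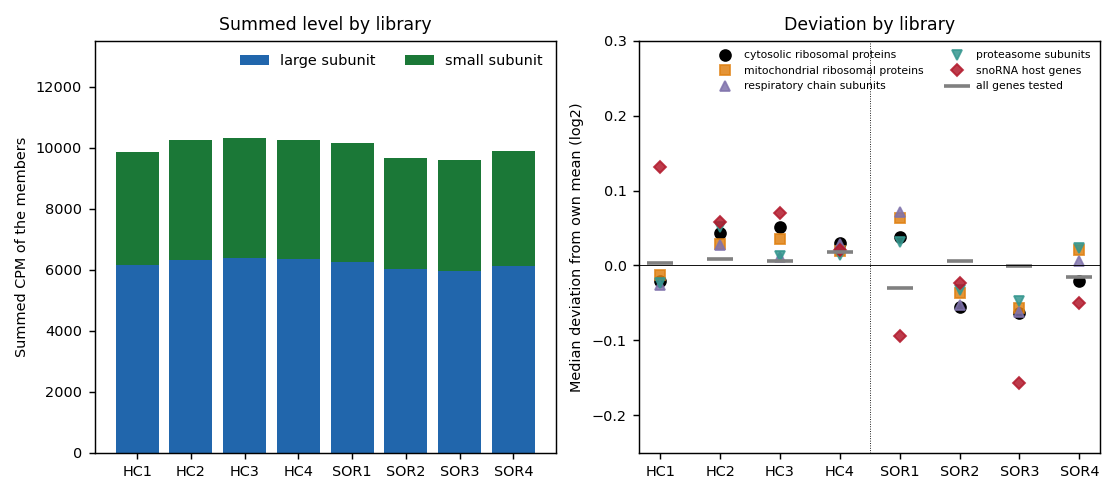
Left, summed CPM of the members in each library, split into large and small subunit. Right, the median deviation of the members (black points) and of 4 other gene lists from each gene's own 8-library mean on the log2 scale, with all genes tested as grey bars, showing the members between -0.064 and 0.051 with HC1 among the low and SOR1 among the high libraries.

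Measured as log2 fold change of SOR over HC, the members ran from -0.16 (Rps27) to 0.15 (Rpl7l1), and their median was -0.052, against -0.019 over all genes tested and -0.0093 over the 9431 protein-coding genes that averaged 10 CPM or more. The value was below 0 for 73 of the 82 members (89.0%), 32 of 33 in the small and 41 of 49 in the large subunit, against 56.2% of all genes. The members share the library differences given above, so they are not independent points. With TMM or RLE factors, which put the median of all genes near 0, 65 members were below 0 and the median was -0.031 and -0.030. Relative to the median of all genes the members' median was -0.033 with upper-quartile and -0.032 with TMM or RLE factors, since a scaling moves all genes alike. Leaving out 1 library at a time kept the median between -0.069 (without SOR mouse 1) and -0.039 (without SOR mouse 3), which relative to all genes was between -0.053 and -0.015.

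**Figure D3:**
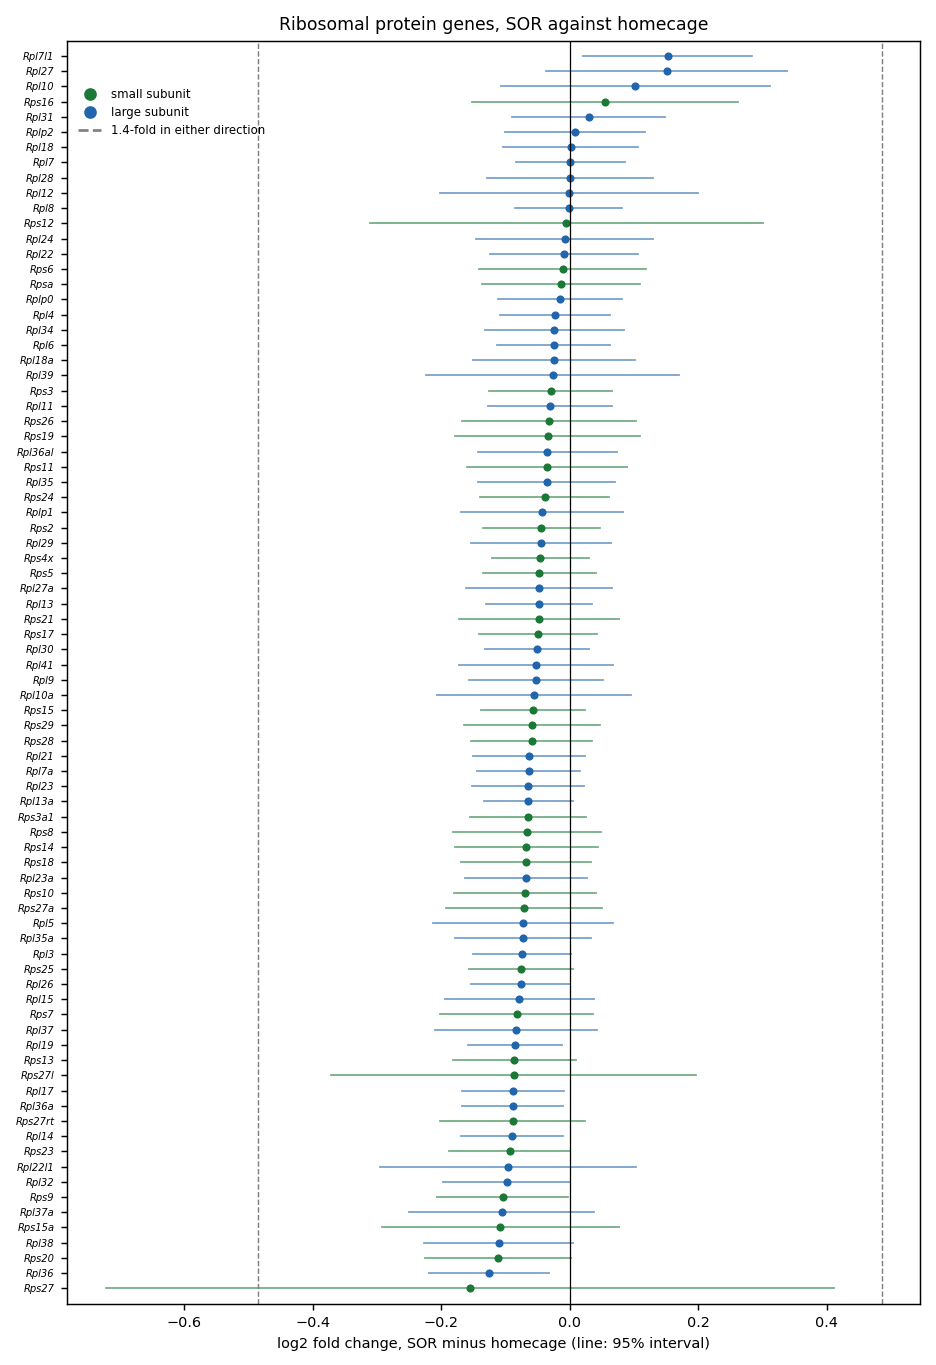
Log2 fold change of SOR over HC for each of the 82 tested members (points) with the 95% interval (lines), green for the small and blue for the large subunit, and dashed lines at 1.4-fold. The estimates lie between -0.16 and 0.15, with 73 below 0, and Rps27 is the only member whose interval passes 1.4-fold.

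The spread between mice was small for this set. The median SD of log2 CPM within groups was 0.066 in the members, 0.086 in such protein-coding genes and 0.14 in all genes tested, and 6 members exceeded that last value. The smallest spread among the members belonged to Rpl13a, often used as a reference gene in PCR, with an SD of 0.018. Rpl13a stood at 202, 201, 204 and 197 CPM in HC and at 193, 193, 190 and 194 CPM in SOR, so every SOR mouse lay below every HC mouse at a fold of 0.956 (log2 fold change -0.065, SE 0.031, adjusted p = 0.529).

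With counts as deposited, groups that did not overlap were found for 8 members, all of the large subunit and all lower in SOR. That was 9.76% of the members tested, against 3.96% of all genes. In the higher direction there were 0 members, against 2.98% of all genes. They were Rpl3, Rpl13a, Rpl14, Rpl17, Rpl19, Rpl32, Rpl36 and Rpl36a. Such separation fixes the exact permutation p at 0.0286, the smallest that 4 against 4 mice allow. That p therefore adds nothing to it. None of the 8 passed the adjusted threshold. With the counts of copies merged, as described further on, Rpl14 overlapped, at 166 CPM in HC mouse 1 and 172 CPM in SOR mouse 1. The small-subunit Rps13, and Rps27 with Rps27rt, then did not overlap. Their lowest HC and highest SOR values were 61.1 and 60.9 CPM for Rps13, and 51.05 and 50.92 CPM for Rps27 with Rps27rt.

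Rpl36 (GRCm38 chr17:56613416-56614243), a protein of the large subunit surface, had the lowest p of the set. It was measured at 49.2, 49.7, 51.4 and 47.4 CPM in HC and at 46.7, 44.3, 44.6 and 45.5 CPM in SOR. The log2 fold change was -0.13 (SE 0.042, 95% interval -0.22 to -0.033, adjusted p = 0.341), which is a fold of 0.916. The highest SOR value and the lowest HC value, 46.7 and 47.4 CPM, were close to each other. Of the 31-base words in its transcript 94.1% also occur in other genes, among them 3 pseudogenes that each hold at least 50% of these words (near copies) and had means of 0.0744 to 0.223 CPM.

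Rpl36a (chrX:134585654-134588062), whose protein lies near the exit site for tRNA, stood at 75.8, 74.7, 72.5 and 74.2 CPM in HC and at 71.5, 70.2, 67.9 and 69.8 CPM in SOR. Its log2 fold change was -0.089 (SE 0.036, adjusted p = 0.441). All SOR mice were lower, with 72.5 CPM in the lowest HC and 71.5 CPM in the highest SOR mouse. Its autosomal paralog Rpl36al (chr12:69182731-69184083) stood at 42.2 ± 0.464 CPM in HC and 41.2 ± 2.36 CPM in SOR (SD, n = 4), and its groups overlapped.

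Rpl19 (chr11:98026710-98030492), which contributes a bridge between the subunits, was measured at 246, 241, 246 and 246 CPM in HC and at 232, 236, 231 and 225 CPM in SOR. The log2 fold change was -0.085 (SE 0.033, adjusted p = 0.429). Rpl14 (chr9:120571444-120574654), one of the members with a pyrimidine tract printed above, gave 149, 149, 157 and 156 CPM in HC and 144, 144, 147 and 139 CPM in SOR. The lowest HC and the highest SOR mouse were at 241 and 236 CPM for Rpl19 and at 149 and 147 CPM for Rpl14.

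Rpl17, a protein at the exit tunnel of the nascent chain, stood at 230, 224, 236 and 238 CPM in HC and at 213, 224, 218 and 219 CPM in SOR, so that the lowest HC and the highest SOR mouse were at 224.1 and 223.6 CPM. Rpl3 (chr15:80077791-80091868), which reaches toward the peptidyl transferase centre, had 411, 416, 410 and 411 CPM in HC and 395, 389, 382 and 399 CPM in SOR. Rpl32 (chr6:115805505-115808747) had 88.8, 85.6, 86.4 and 87.1 CPM in HC and 82.1, 84.6, 83.5 and 74.6 CPM in SOR, with SOR mouse 4 below the others. The log2 fold changes of these 3 genes ran from -0.098 to -0.074 with adjusted p between 0.443 and 0.506.

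Other members at the low end overlapped between groups. Rps20 (chr4:3831334-3835665), a protein of the head of the small subunit, stood at 65.2, 62.9, 67.4 and 69.4 CPM in HC and at 66.6, 58.4, 60.7 and 59.5 CPM in SOR, where SOR mouse 1 lay within the HC range. Rpl38 (chr11:114668524-114672331), known for its role in translating Hox mRNAs in the embryo, had 58.1, 58.8, 62.9 and 66.0 CPM in HC and 57.9, 56.8, 59.4 and 53.5 CPM in SOR. Both had a log2 fold change of -0.11, with adjusted p of 0.506 and 0.516. Rps15a (chr7:118104372-118116188) also had -0.11. It stood at 91.5, 87.1, 92.1 and 89.7 CPM in HC and at 90.2, 89.5, 87.6 and 66.9 CPM in SOR, and SOR mouse 4 was the only one below the HC range. Without that mouse the log2 fold change was -0.019.

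At the high end, Rpl7l1 (chr17:46773907-46782672), a paralog of Rpl7, was the single member with an unadjusted p under 0.05 in the higher direction, against 4.54% of all genes. It stood at 28.2, 27.3, 27.8 and 27.6 CPM in HC and at 32.0, 32.8, 27.6 and 30.8 CPM in SOR. SOR mouse 3 lay within the HC range and the other 3 above it. The log2 fold change was 0.15 (SE 0.060, 95% interval 0.021 to 0.28, adjusted p = 0.431), and Rpl7 itself (chr1:16101295-16104662) stood at 178 ± 4.91 CPM in HC and 178 ± 6.13 CPM in SOR (SD, n = 4). In the lower direction 6 members had an unadjusted p under 0.05, against 5.51% of all genes. That number fell to 1 without HC mouse 3, without HC mouse 4, and with TMM and with RLE factors. It was also 1 with DESeq2 and with edgeR's likelihood ratio test, and came to 18 without SOR mouse 1. Over the alternatives that kept all mice it lay between 1 and 16.

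**Figure D4:**
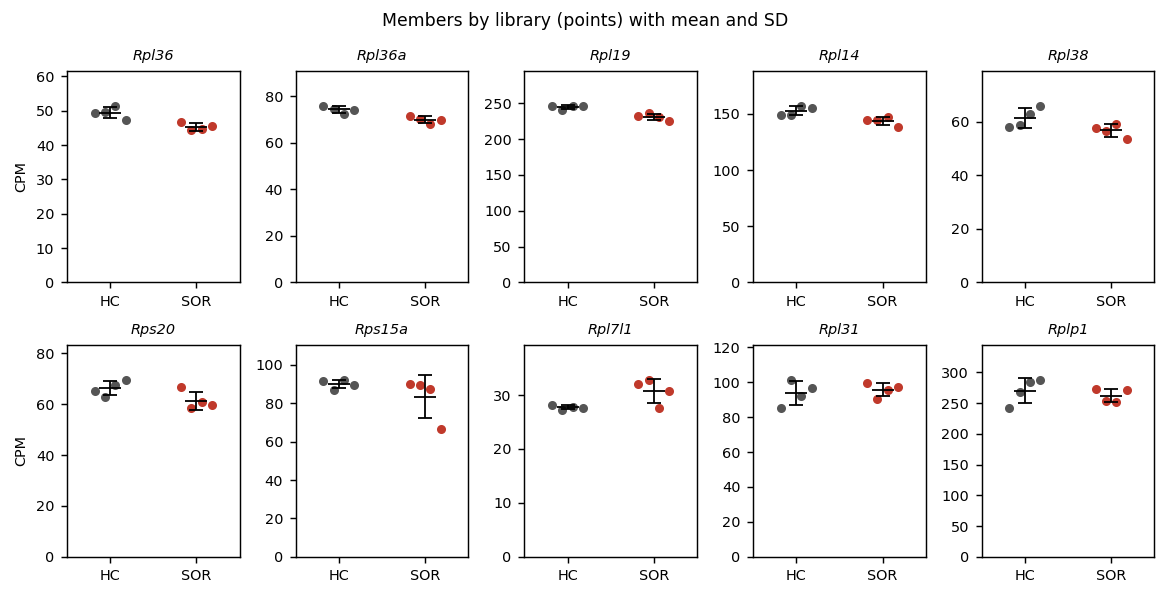
CPM of 10 members in each library (points, grey for HC and red for SOR) with the mean and SD of each group, on axes that start at 0. With counts as deposited, Rpl36, Rpl36a, Rpl19 and Rpl14 show separate groups less than 10% apart. Rps15a shows 1 low SOR library and Rpl7l1 shows 3 of 4 SOR libraries above the HC range.

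Among the P stalk and ubiquitin fusion members the groups overlapped. Rplp0, the base of the stalk, stood at 165, 172, 178 and 170 CPM in HC and at 180, 164, 161 and 171 CPM in SOR. Rplp1 had 242, 268, 284 and 287 CPM in HC and 273, 253, 252 and 270 CPM in SOR. Rplp2 had 103 ± 2.71 CPM in HC and 104 ± 6.81 CPM in SOR (SD, n = 4). Rps27a, which is made as a fusion with ubiquitin, had 57.5 ± 3.61 CPM in HC and 54.8 ± 2.65 CPM in SOR (SD, n = 4). The log2 fold changes of the 4 genes lay between -0.071 (Rps27a) and 0.0077 (Rplp2).

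Rpsa, which encodes a protein also described as a laminin receptor, had the most counts of all members, with 439, 494, 494 and 482 CPM in HC and 499, 453, 444 and 495 CPM in SOR. HC mouse 1 was the lowest and SOR mouse 1 the highest of the 8 libraries. The same libraries were the lowest and the highest for Rps6 (chr4:86854660-86857412), with 123, 142, 145 and 138 CPM in HC and 146, 134, 128 and 134 CPM in SOR, and a log2 fold change of -0.011 (SE 0.059). Rps6 has 5 near copies elsewhere in the genome, as described further on for other members, and with their counts merged this order was not kept: the values were 246, 255, 257 and 258 CPM in HC and 249.8, 250.3, 238 and 239.6 CPM in SOR, with a log2 fold change of -0.056 (SE 0.036, adjusted p = 0.658).

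The members carry much sequence in common with other genes, which limits what their counts can say about a single locus. Mammalian genomes hold many retrocopies of ribosomal protein mRNAs. The table lists 307 rows named as copies of this family, of which 213 had counts. These are pseudogenes whose symbol begins with Rpl or Rps and protein-coding rows of that kind with -ps in the symbol. Pseudogenes with other names, such as those beginning with Gm, are not among them. The paper names Rpl7a-ps3, a copy of Rpl7a, among the top genes of its bulk RNA-seq. The 307 rows are not members, and tests of them are not given here. The sum of the 307 rows was 617 to 677 CPM per library, which includes the protein-coding Rps12-ps3 and Rpl10-ps3, with means of 105 and 97.8 CPM. In the transcripts of GENCODE M21, a median of 62.5% of a member's 31-base words also occurred in other genes, and 48 of the 85 members had a near copy, a gene that holds at least 50% of the member's words. Of the 150 such pairs, 133 were with pseudogenes. Over 90% of the words were shared in 7 members and under 10% in 4.

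Rps27 shows what this means at the level of the sequence. It encodes a small-subunit protein with a zinc finger at chr3:90212522-90213651 (minus strand), and Rps27rt, itself a member, is annotated at chr9:114982366-114982739 (minus strand). Their coding sequences of 252 bases differ at 0 positions, so the sequence of Rps27 below stands for both. The paralog Rps27l at chr9:66946086-66949516 (plus strand) differs from Rps27 at 60 of the 252 bases, set in capitals, and is told apart by its sequence.
Rps27: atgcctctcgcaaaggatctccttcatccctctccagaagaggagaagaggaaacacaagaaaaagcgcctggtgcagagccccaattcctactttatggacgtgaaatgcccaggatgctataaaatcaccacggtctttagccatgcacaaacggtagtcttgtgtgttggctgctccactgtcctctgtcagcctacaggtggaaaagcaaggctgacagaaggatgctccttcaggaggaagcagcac
Rps27l: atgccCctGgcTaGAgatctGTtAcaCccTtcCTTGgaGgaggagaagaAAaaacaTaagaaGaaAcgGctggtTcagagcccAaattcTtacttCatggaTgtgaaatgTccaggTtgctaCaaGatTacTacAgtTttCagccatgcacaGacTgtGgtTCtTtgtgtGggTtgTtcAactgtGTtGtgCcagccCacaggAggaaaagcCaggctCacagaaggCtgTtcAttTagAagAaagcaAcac
All 3 sequences are 5′ to 3′ from GENCODE M21 (GRCm38). Rps27 stood at 14.7, 6.86, 6.23 and 7.68 CPM in HC and at 6.56, 10.2, 7.94 and 7.15 CPM in SOR. Rps27rt stood at 40.3, 44.1, 45.6 and 45.9 CPM in HC and at 42.7, 40.8, 40.4 and 41.6 CPM in SOR. The HC library with the highest Rps27 value had the lowest Rps27rt value. Rps27 had both the lowest log2 fold change of the set, -0.16, and the widest interval, -0.72 to 0.41, and without HC mouse 1 the value was 0.20.

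A second pair was Rps12 (chr10:23785183-23787275, minus strand) and Rps12-ps3 (chr19:59322290-59322783, plus strand), whose 396 coding bases also differ at 0 positions. Rps12, a protein of the beak of the small subunit, stood at 30.6, 37.2, 28.4 and 28.9 CPM in HC and at 23.4, 29.3, 34.3 and 37.9 CPM in SOR. Rps12-ps3, annotated as protein-coding despite its name, held more, with 113, 105, 107 and 114 CPM in HC and 112, 91.4, 97.4 and 97.4 CPM in SOR. The spread of Rps12 within groups, 0.24 on the log2 scale, made it the second most variable member. The third pair, Rpl10 (chrX:74270812-74273135) and Rpl10-ps3 (chr9:50344201-50344968), shares all 642 coding bases, with a mean of 17.7 CPM on Rpl10 and 97.8 CPM on Rpl10-ps3. Rpl10 takes part in the joining of the subunits and is essential, yet its level per length was 22.1 CPM per kb, among the lowest of the members.

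When the counts of each member were merged with those of its near copies, a step chosen after the values were seen, 81 families were tested, 0 were called, and the median was -0.054 on the log2 scale. Merging left the level of 31 of the 48 tested members with a near copy within 5% and raised 6 of them by over 1.5 times: Rpl10 from 17.7 to 116 CPM, Rps27 from 8.42 to 51.1 CPM, Rps12 from 31.3 to 167 CPM, Rpl27 from 13.1 to 63.2 CPM, Rpl24 from 33.7 to 73.9 CPM and Rps6 from 136 to 249 CPM. The SD within groups went from 0.42 to 0.041 for Rps27 with Rps27rt and from 0.24 to 0.036 for Rps12. Over the members with a near copy the largest SD went from 0.42 to 0.11. Among the 34 tested members without one it was 0.17, and merging leaves their counts as they were. Rpl12, which shares 49.8% of its words with Gm10275, fell just below the 50% limit and was not merged.

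Some of the largest differences between groups were also in such members. Rpl27 (chr11:101442298-101445529) had a log2 fold change of 0.15 (SE 0.085, adjusted p = 0.596) from 12.3, 12.2, 13.8 and 11.3 CPM in HC and 14.2, 14.6, 12.3 and 13.98 CPM in SOR, and -0.043 when merged with the pseudogene Rpl27-ps3, which held a mean of 50.1 CPM. Rpl10 went from 0.10 to 0.014 with merging, and as deposited it was at 0.0085 without SOR mouse 1. Rps27 went from -0.16 to -0.10. Rpl31 (chr1:39367842-39371911), at 93.8 ± 6.68 CPM in HC and 95.8 ± 3.74 CPM in SOR (SD, n = 4), went from 0.029 to -0.031. Rpl7l1, which has no near copy and so kept its counts, was at 0.15 in both fits. Rps16 (chr7:28350652-28353155), also without one, was at 0.055 and 0.054, with 35.2, 42.6, 38.4 and 40.7 CPM in HC and 48.5, 35.3, 39.1 and 40.1 CPM in SOR, and was at -0.042 without SOR mouse 1 and 0.0091 without HC mouse 1. How the reads of copies were divided between loci was not tested.

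**Figure D5:**
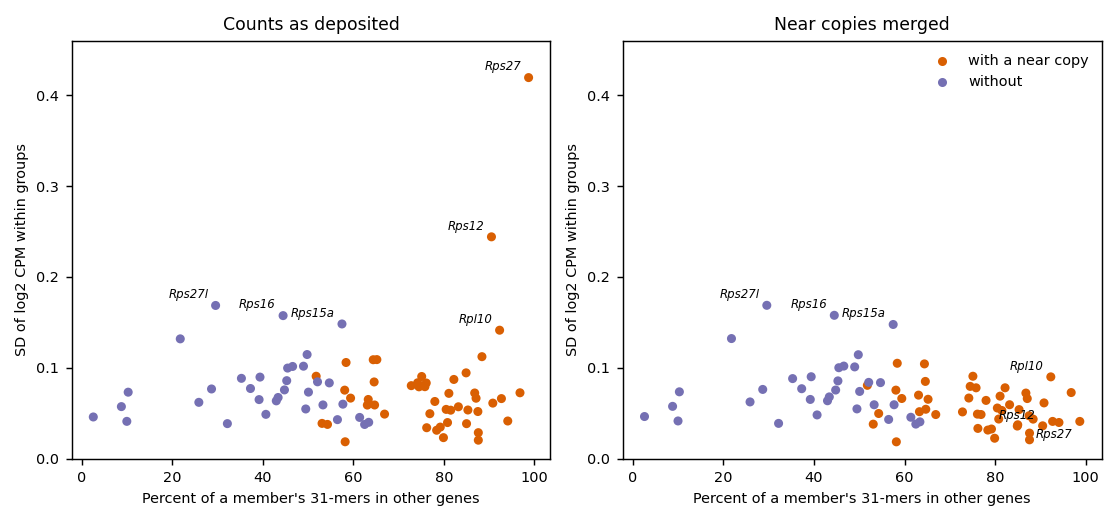
SD of log2 CPM within groups against the percent of a member's 31-base words that occur in other genes, for the 82 tested members, with counts as deposited (left) and with near copies merged (right), orange for members with a near copy and purple for those without. Rps27 and Rps12 lie at 0.42 and 0.24 on the left and at 0.041 and 0.036 on the right.

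The tested paralogs other than Rps27rt stood below their parents in level per length, and 0 were called between groups. Rpl22l1 stood at 10.49 ± 0.641 CPM in HC and 9.82 ± 0.956 CPM in SOR, against 68.8 ± 2.73 and 68.4 ± 4.34 CPM for Rpl22 (SD, n = 4). In CPM per kb of principal transcript this was 18.4 for the paralog and 145 for the parent. On the same scale Rpl7l1 and Rpl7 stood at 22.3 and 153, Rpl36al and Rpl36a at 79.2 and 149, and Rps27l and Rps27 at 10.9 and 24.4. Rps27l, known as a target of p53, stood at 5.60 ± 0.061 CPM in HC and 5.26 ± 0.965 CPM in SOR (SD, n = 4), where SOR mouse 1 was the highest and SOR mouse 3 the lowest of all 8. The remaining X-linked parents, Rps4x and Rpl39, had log2 fold changes of -0.046 and -0.027. Among the 5 tested paralogs 4 had values below 0, as did 6 of the 8 parents.

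Genes that make ribosomes or work with them were likewise without a call. Of 60 ribosome biogenesis genes 0 passed in either direction and 30 were below 0 (median 0.0019 on the log2 scale), and of 37 translation factors 0 passed (median -0.026). Of 25 genes of mTOR and S6 kinase signalling, which acts on TOP mRNAs, 0 passed, 8 were below 0 and the median was 0.073. These 25 genes include both activators and inhibitors of the pathway, so their median gives no direction of signalling. In the higher direction 6 of the 25 had an unadjusted p under 0.05, against 4.54% of all genes, the lowest being Ddit4, an inhibitor of mTOR, at 15.0, 18.1, 17.9 and 17.4 CPM in HC and 21.8, 22.6, 19.1 and 27.9 CPM in SOR (log2 fold change 0.42, SE 0.11, adjusted p = 0.213). The 7 snoRNA host genes, several of which also carry TOP tracts, were all below 0 with a median of -0.15 and 0 calls. Gas5, the most abundant of them, stood at 125 ± 1.73 CPM in HC and 117 ± 4.64 CPM in SOR (SD, n = 4, log2 fold change -0.096, adjusted p = 0.436).

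Among other abundant housekeeping genes, 0 of 78 mitochondrial ribosomal protein genes, 0 of 94 respiratory chain subunit genes and 0 of 40 proteasome genes passed, with medians of -0.033, -0.024 and -0.018. Markers of other cell types also differed between libraries, and the libraries from HC mouse 1 and SOR mouse 1, which departed from their groups in the members, are given for each. The 8 oligodendrocyte markers were all below 0 with a median of -0.19, 0 called and none at 0, and their sum was 5428 to 5916 CPM in HC and 4436 to 5827 CPM in SOR. Their median deviation was opposite in sign to that of the members in both libraries, 0.052 in HC mouse 1 and -0.17 in SOR mouse 1. Of the 7 microglia markers 5 were below 0 with a median of -0.089, 0 called and none at 0, and their sum was 252 to 289 CPM in HC and 244 to 279 CPM in SOR. Their median deviation had the sign of the members' in every library but that of SOR mouse 4, at -0.095 in HC mouse 1 and 0.0044 in SOR mouse 1.

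The 5 red blood cell markers were all above 0 with a median of 0.37, 0 called and none at 0, and their sum was 98.6 to 127 CPM in HC and 115 to 184 CPM in SOR. Their median deviation was -0.34 in HC mouse 1 and 0.45 in SOR mouse 1. The 7 choroid plexus markers had sums of 27.3 to 1102 CPM in HC and 44.0 to 4014 CPM in SOR, with 0 called and none at 0, and HC mouse 1 and SOR mouse 1 held the highest sum of their groups. For the excitatory neuron markers the median deviation was -0.11 in HC mouse 1 and -0.089 in SOR mouse 1. In the same order it was 0.0071 and -0.018 for inhibitory neuron and -0.025 and -0.0023 for astrocyte markers. For endothelial markers it was 0.069 and -0.0041. The part of these cell types in the members' values was not tested.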

How the data were processed

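RNA of the dorsal hippocampus of 8 mice (4 HC, 4 SOR) was analysed. The paper's methods name a stranded total RNA kit with rRNA depletion, 150-bp paired-end reads, STAR and featureCounts within bcbio-nextgen, whereas the labels name polyA RNA. The values deposited by the authors are estimated counts per gene, not normalized and summarized with tximport, 52.6% of them not whole. The quantifier behind them and whether counting used strand are not given in the sources used here, so reads of antisense or overlapping genes may be included.

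The rounded counts were filtered (filterByExpr), scaled by upper quartile and compared between SOR and HC in edgeR 4.0.16 (R 4.3.3, quasi-likelihood test), with p adjusted with the Benjamini-Hochberg method over 22018 genes. SE was derived from the log2 fold change and F. Exact two-sided permutation tests used log2(CPM + 0.5) over 70 assignments. Alternatives were other scalings and filters, DESeq2 1.42.0, limma-voom 3.58.1, RUVs factors computed by the same algorithm since the authors' number of factors is not given, a replicate block, unrounded counts and leaving out each library. Gene types, lengths and positions were from GENCODE M21 (54495 of 54532 genes matched), promoters from RefSeq. The test was tried on simulated counts with known changes.

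The members and gene lists were chosen with earlier results of these data known. Genes named were the 5 highest and 5 lowest log2 fold changes, the 3 highest and lowest levels per length, the 3 most variable, paralogs and their parents, stalk and fusion members and those not tested. The 8 members whose groups did not overlap, and Rpsa, Rps6, Rpl41 and Rpl24, were added after their values were seen. Replicates of a group differed by more than sampling noise (chi-square per degree of freedom 11.1 to 49.2), and permutation and model p-values measure the spread between these mice.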

Additional observations from a re-analysis of the deposited data

Results flagged for a closer look

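In 5 of 70 groups examined, 1 library lay far from the other 3, where chance alone gives about 1 in 20. Rps27 was at 14.7 CPM in HC mouse 1 against 6.23 to 7.68 CPM in the other HC mice. Rps15a was at 66.9 CPM in SOR mouse 4 against 87.6 to 90.2 CPM in the others. Rpl19 was at 241 CPM in HC mouse 2, where the other 3 stood at 246 CPM, and Rpl7 was at 170 CPM in HC mouse 1 against 180 to 181 CPM. The summed level of the members was 9860 CPM in HC mouse 1 against 10200 to 10300 CPM in the other HC mice. The gap of Rps27 was at the limit of what counts as far, and with its counts merged with those of Rps27rt the 4 HC mice stood at 55.0, 51.05, 51.9 and 53.7 CPM.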

How the results depend on the processing

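The count of members called stayed at 0 in either direction under every alternative run, and the median log2 fold change of the members lay between -0.069 and -0.030. The replicate block called 0 members (median -0.053) and 40 genes in all against 68 without it. No pairing of mice by number was visible. Deviations of same-numbered mice correlated between -0.099 and 0.15, and those of mice with different numbers between -0.31 and 0.23. The median level per length of 147 CPM per kb became 49.9 with the union of exons and 216 with the coding length. Of the single genes, 705 values kept their direction and 45 did not, and none of these 45 passed the threshold.

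The values that changed sign were as follows. With near copies merged, Rpl27 was at -0.043 and Rpl31 at -0.031. With TMM, RLE and DESeq2 scaling, Rps12 was at 0.013, 0.015 and 0.016, Rplp0 at 0.0057, 0.0070 and 0.0070, and Rpl22 at 0.012, 0.014 and 0.014. With 2 and 3 RUVs factors, Rps12 was at 0.014 and 0.011 by the likelihood ratio test and at 0.014 and 0.010 by the quasi-likelihood test, Rplp2 at -0.0042 and -0.0019, then at -0.0042 and -0.0018, and Rpl7 at -0.0062 and -0.0053, then at -0.0061 and -0.0052. Rpl7 was at -0.00014 with no filter, -0.00020 with limma-voom and -0.00038 with unrounded counts. Over the 8 fits that each left out 1 library, the values ran from -0.30 to 0.20 for Rps27, which was above 0 only without HC mouse 1, from -0.042 (without SOR mouse 1) to 0.12 for Rps16, from -0.010 (without HC mouse 1) to 0.068 for Rpl31, from -0.21 to 0.0024 (without SOR mouse 3) for Rps27l, from -0.11 to 0.11 for Rps12, from -0.047 to 0.0079 for Rplp0, from -0.030 to 0.034 for Rplp2, from -0.048 to 0.029 for Rpl22, from -0.10 to 0.031 for Rpl39 and from -0.019 to 0.020 for Rpl7. The cause of these changes was not tested.

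With 4 mice a group the intervals bound a difference for most members but do not show that it is 0.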
